A study of Homo sapiens with 17 samples.

Results

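The loss of the heat shock transcription factor HSF1 was compared with the loss of the oxygenase JMJD6 in PC3M, an established human prostate cancer cell line, while the proteasome was blocked. HSF1 knockout (KO) cells (n = 2 libraries, labelled A and B) were set against cells carrying an siRNA against JMJD6 (siJMJD6, n = 2 libraries, labelled 1 and 2). The knockdown lasted 72 h, and all 4 libraries came from cells given the proteasome inhibitor MG132 at 2.5 µM for 4 h. Cells with a non-targeting siRNA (siNT) and either MG132 (n = 2) or its solvent DMSO (n = 2) were the controls of the same table. The genes compared were those with at least 10 normalised counts in at least 2 of the 4 libraries, which held for 9156 of the 14085 genes in the table. TAF5 was just inside this limit, with a second-highest value of 10.01, and ZNF26 was just outside, with 9.999. All 4 libraries were made with QuantSeq FWD, a kit that reads 1 tag near the 3' end of each transcript, so values count transcripts without a correction for length.

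The design limits what the contrast can show. The KO labels name no siRNA, so genotype and transfection cannot be told apart. The labels do not say whether A and B are separate clones or separate cultures, nor whether libraries 1 and 2 come from separate cultures, and a p-value here reflects only how much the libraries vary, possibly for technical reasons. None of the 17 libraries of the series came from KO or siJMJD6 cells given DMSO in place of MG132. A difference between the groups may therefore have been present before the inhibitor was added. In bulk RNA, fewer cells of a kind and less RNA per cell cannot be told apart.

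HSF1 is the factor that binds heat shock elements, which are inverted repeats of the unit GAA, and switches on chaperone genes when unfolded protein accumulates. Blocking the proteasome is a strong inducer of this response, and it also engages the integrated stress response, in which phosphorylation of the initiation factor eIF2α slows translation and favours synthesis of the transcription factor ATF4. ATF4 and its partner CHOP (gene DDIT3) drive genes of amino acid synthesis and uptake and genes that restrain growth. JMJD6 is a nuclear JmjC-domain oxygenase that hydroxylates lysines of splicing proteins, and it is known to affect splicing and transcription.

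The groups differed widely. Of the 9156 genes, 2005 (21.9%) passed an adjusted p of 0.05 with limma, 1071 higher and 934 lower in KO than in siJMJD6 cells, while 7151 did not pass. Over all 9778 genes tested in the table the called share was 20.8%, with 11.1% higher and 9.69% lower in KO. These shares are the background of every list count below. At least a 2-fold difference was found for 919 of the genes called higher and 821 of those called lower, and at least an 8-fold difference for 50 and 118. Differences are given as KO minus siJMJD6 on the scale of log2(normalised count + 1), which understates the change of low genes, and adjusted p-values are Benjamini-Hochberg values from limma over all genes tested. The median difference was 0.048 for the genes compared, with a median SE of 0.38. Gene lists are described below by their measured members, meaning those among the 9156 genes, which were 483 of 611 list genes.

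A minimum of 10 counts was reached in all 4 libraries by 7170 genes, of which 806 were called higher and 671 lower in KO. It was reached in both libraries of KO and neither of siJMJD6 by 337 genes, and the reverse held for 360, where a difference is partly set by the filter. Of the genes named below, CDC45, CTAG2, DIAPH2, ESRP1, NFKB1, SPARC and TNFAIP2 passed only through KO, and CLDN14, CLU, DIO3, FOSB, HIST1H2AE, HIST1H2BD, RAB31 and SNAR-F only through siJMJD6. The values of the groups did not overlap for 5684 (62.1%) of the 9156 genes, and for 5974 of all 9778 genes tested. The groups overlapped for 0 of the called genes, so a lack of overlap adds nothing to a call. Across genes, log2 values correlated at r = 0.955 between the KO libraries, 0.919 between the siJMJD6 libraries and 0.804 to 0.819 between the groups. KO libraries correlated with siNT libraries under MG132 at 0.905 to 0.914, against 0.835 to 0.869 for siJMJD6 libraries; genes are not independent replicates, so these are descriptions. Estimated depth was 1.54 to 1.96 M reads in the 4 libraries, and 1 transcript, RPS24, held 3.24 to 3.78% of the normalised counts. Leaving out KO A lowered the number of genes called in the table from 2033 to 653, and leaving out KO B to 741. The lone KO library was then assumed to vary like the other groups.

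**Figure D1:**
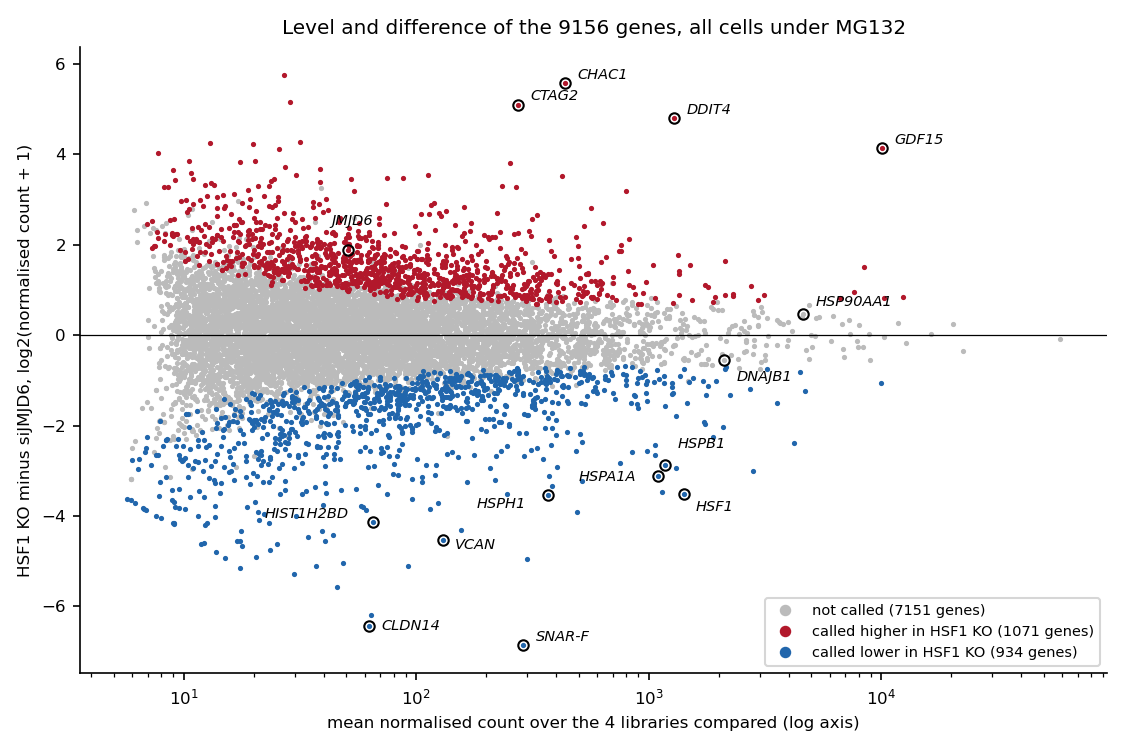
Each point is 1 of 9156 genes, with its mean normalised count over the 4 libraries on a log axis and the difference HSF1 KO minus siJMJD6 on the log2(normalised count + 1) scale. Red points (1071) were called higher, blue points (934) lower and grey points (7151) not called; HSF1, HSPH1, HSPA1A and HSPB1 lie among the lower points, and CHAC1, DDIT4 and GDF15 among the higher.

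The targeted genes were examined first. HSF1 (chr8:144291591-144314722, plus strand, hg38) had normalised counts of 285 and 175 in KO and 2968 and 2216 in siJMJD6 libraries, a difference of -3.51 ± 0.27 SE, adjusted p = 1.07e-05. Its siNT values were 1687 and 1884 with MG132 and 1502 and 1223 with DMSO. Every KO library was below every other library, but the 3' tag need not lie in the deleted part, so the remaining reads do not test the deletion itself. JMJD6 (chr17:76712832-76726799, minus strand) had 26.6 and 16.6 in siJMJD6 and 80.5 and 79.4 in KO libraries, a difference of 1.87 ± 0.32 SE, adjusted p = 0.00193. The siNT libraries held 167 and 129.8 with MG132 and 88.7 and 70.9 with DMSO. The KO values thus lay between the siJMJD6 and the siNT values under MG132, and within the range of the DMSO values.

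Of 14 measured genes for HSF1 and its regulators, 1 was called higher and 3 lower in KO, HSF1 itself among them. The called share was 28.6%, against 20.8% of all genes tested, and the median difference was -0.077. IER5L, a relative of the HSF1 coactivator IER5, had 84.7 and 103 in KO and 610.2 and 819.8 in siJMJD6 libraries (-2.91 ± 0.26 SE, adjusted p = 2.87e-05). IER5 itself had 142 and 158 against 331 and 270.5 (-0.99 ± 0.25 SE, adjusted p = 0.0129), a call that was lost without KO A, KO B or siJMJD6 1 (adjusted p up to 0.108). HSBP1, a small protein that binds HSF1 trimers, went the other way, with 391 and 385 in KO and 137 and 143 in siJMJD6 libraries (1.46 ± 0.23 SE, adjusted p = 0.00107). For HSBP1 the siNT values under MG132, 439.8 and 411, lay near those of KO.

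Cytosolic chaperones and co-chaperones, the main targets of HSF1, were lower in KO far more often than higher. Of 38 measured members, 13 were called lower, 2 higher and 23 not called, against 9.69% lower and 11.1% higher of all genes tested. The list's median difference was -0.50, against 0.051 for all genes tested. Set against siNT under MG132, the list's median was -0.996 in KO and -0.30 in siJMJD6 cells. Both contrasts use the same siNT libraries. The list's summed counts were 20600 and 18800 in KO, 27000 and 28200 in siJMJD6, and 87300 and 75900 in siNT libraries under MG132, so the summed chaperone RNA of both groups was below that of the stressed controls. A sum is weighted toward the most abundant genes, such as HSP90AA1, and not every member was lower in siJMJD6 than in siNT cells.

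The inducible HSP70 genes were lower in KO. HSPA1A had 181 and 229 counts in KO, 1116 and 2860.3 in siJMJD6, 12973 and 7553 in siNT with MG132 and 746 and 980.1 in siNT with DMSO. The difference between KO and siJMJD6 was -3.13 ± 0.38 SE, adjusted p = 0.000181. The siJMJD6 values were thus far below the stressed control yet above the unstressed one, while KO values were below both. HSPA1B, its near-identical neighbour, followed the same order, with 82.0 and 97.0 in KO, 499 and 722 in siJMJD6, 4229 and 2312 in stressed and 211 and 275 in unstressed controls (-2.74 ± 0.30 SE, adjusted p = 0.000102). Reads of HSPA1A and HSPA1B can be assigned to either copy, so the split between them is uncertain.

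HSPH1, the large HSP110 partner of HSP70, had 77.5 and 41.3 in KO and 572 and 782 in siJMJD6 libraries, 11.4-fold apart in their means (-3.54 ± 0.33 SE, adjusted p = 3.54e-05). Its siNT values were 1390.3 and 1157 with MG132 and 358 and 635 with DMSO. HSPB1 (chr7:76302544-76304295, plus strand), the small heat shock protein HSP27, had 347 and 228 in KO and 2136 and 1977 in siJMJD6 libraries (-2.87 ± 0.25 SE, adjusted p = 2.38e-05). With siNT it had 1746 and 1757 under MG132 and 824 and 1063 with DMSO. For HSPB1, then, siJMJD6 values exceeded both stressed control values, by 0.23 (adjusted p = 0.589, not called), and the KO values lay below all others. The calls for HSPA1A, HSPA1B, HSPH1 and HSPB1 held in each of 17 alternatives.

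A further 3 co-chaperones, chosen after their values were seen, were lower in KO while siJMJD6 cells held levels near those of siNT. ST13, which links HSP70 and HSP90, had 124 and 111 in KO, 314 and 313 in siJMJD6 and 295 and 306 in siNT libraries with MG132 (-1.41 ± 0.23 SE, adjusted p = 0.00131). AHSA1, an activator of the HSP90 ATPase, had 782 and 696, 1578 and 2011 and 1756 and 1629 in the same order (-1.27 ± 0.22 SE, adjusted p = 0.00195). DNAJB2, a J-domain protein that presents ubiquitinated clients, had 43.2 and 27.9, 143 and 109 and 119 and 113 (-1.82 ± 0.31 SE, adjusted p = 0.0018). In each of these 3 the KO libraries were below every other library of the experiment. The remaining called genes, HSPA1L, HSPA4L, HSPB8, CHORDC1, SUGT1 and HSPBP1, lost their call when 1 of the 4 libraries was left out, and without KO B the list's lower count fell to 7.

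Other chaperones lay far below the stressed controls in both groups. HSP90AA1, the inducible HSP90, had 30731 and 26706 counts in siNT with MG132 and 10212 and 9899.8 with DMSO, but 5819 and 4848 in KO and 4040.5 and 3662 in siJMJD6 libraries. The difference between the groups was 0.47 ± 0.23 SE, adjusted p = 0.169, with a 95% interval of -0.033 to 0.96. DNAJB1, the main J-domain partner of inducible HSP70, had 11245 and 11139.8 in stressed controls, 1429 and 1981 in KO and 2926 and 2081 in siJMJD6 libraries (-0.55 ± 0.25 SE, adjusted p = 0.139, interval -1.10 to -0.0065). BAG3, which couples HSP70 to autophagy, had 1630.0 and 763, 68.5 and 93.9 and 111 and 253 (-1.05 ± 0.43 SE, adjusted p = 0.0997, interval -1.98 to -0.12). None of these 3 passed the threshold, although their intervals leave room for differences of up to 0.96 for HSP90AA1, -1.10 for DNAJB1 and -1.98 for BAG3. HSP90AA1 passed with quantile normalisation (0.56, adjusted p = 0.0298), BAG3 without siJMJD6 1 (-1.64, adjusted p = 0.0225) and DNAJB1 without siJMJD6 2 (-0.80, adjusted p = 0.0402).

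HSPA8, the constitutive HSC70, was the reverse case, at 408 and 337 in KO and 123 and 269 in siJMJD6 libraries (1.02 ± 0.34 SE, adjusted p = 0.0489). The siNT values were 709.5 and 464 with MG132 and 324 and 422 with DMSO. The call was lost in 12 of 17 alternatives, among them leaving out siJMJD6 1, KO A, KO B or 1 of 3 siNT libraries (adjusted p up to 0.332), and the difference was 0.46 without siJMJD6 1 and 1.58 without siJMJD6 2.

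**Figure D2:**
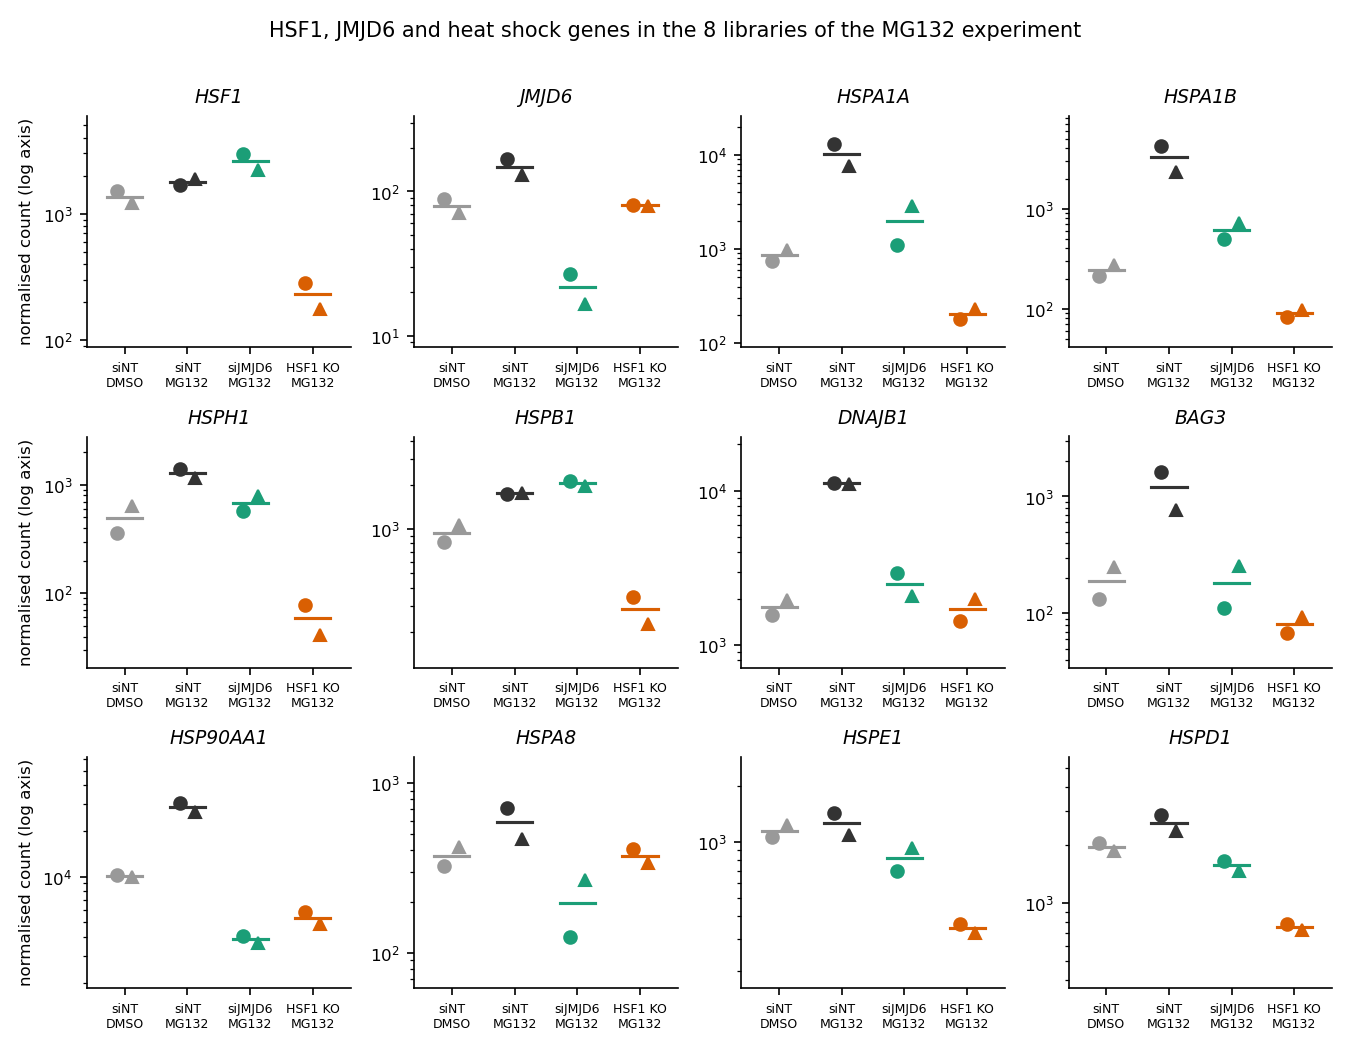
Normalised counts on log axes of HSF1, JMJD6 and 10 heat shock genes in each of the 8 libraries of the MG132 experiment. Circles are replicates 1 or A, triangles 2 or B, and bars the group means; HSPA1A, HSPA1B, HSPH1 and HSPB1 are lowest in HSF1 KO, whereas HSP90AA1, DNAJB1 and BAG3 lie below stressed siNT cells in both groups.

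The promoters of these genes show how heat shock elements are spread over genes that did and did not separate the groups. RefSeq windows of GRCh38.p14, from 250 bases before to 50 after a start site, were searched for the 2-unit heat shock element, spelled GAANNTTC or TTCNNGAA, and for a 3-unit element of 1 further unit at the same spacing, which contains and overlaps 2-unit matches. HSPA1A (chr6:31815293-31815592, plus strand) and HSPB1 (chr7:76302423-76302722, plus strand) stand for genes lower in KO, HSPA8 (chr11:123062087-123062386, minus strand) for a gene higher in KO, and the second listed start of HSP90AA1 (chr14:102086995-102087294, minus strand) for genes not called. Capitals mark the elements.
HSPA1A: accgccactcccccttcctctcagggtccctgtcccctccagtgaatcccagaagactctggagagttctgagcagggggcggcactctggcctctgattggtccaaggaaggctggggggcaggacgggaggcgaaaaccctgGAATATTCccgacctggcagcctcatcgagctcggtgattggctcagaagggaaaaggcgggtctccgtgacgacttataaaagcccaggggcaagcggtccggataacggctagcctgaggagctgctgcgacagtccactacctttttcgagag
HSPB1: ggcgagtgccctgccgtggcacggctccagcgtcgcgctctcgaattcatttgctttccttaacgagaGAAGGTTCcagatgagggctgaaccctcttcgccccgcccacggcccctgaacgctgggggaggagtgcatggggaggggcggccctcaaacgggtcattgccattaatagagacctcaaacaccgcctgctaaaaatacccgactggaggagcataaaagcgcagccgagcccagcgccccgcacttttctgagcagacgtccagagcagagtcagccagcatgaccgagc
HSPA8: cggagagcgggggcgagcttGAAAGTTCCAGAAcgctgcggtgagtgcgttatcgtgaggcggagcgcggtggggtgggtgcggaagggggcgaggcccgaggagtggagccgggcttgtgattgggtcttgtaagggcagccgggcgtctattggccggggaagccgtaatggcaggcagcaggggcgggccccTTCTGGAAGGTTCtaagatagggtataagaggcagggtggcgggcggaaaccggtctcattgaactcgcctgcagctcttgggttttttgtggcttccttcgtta
HSP90AA1: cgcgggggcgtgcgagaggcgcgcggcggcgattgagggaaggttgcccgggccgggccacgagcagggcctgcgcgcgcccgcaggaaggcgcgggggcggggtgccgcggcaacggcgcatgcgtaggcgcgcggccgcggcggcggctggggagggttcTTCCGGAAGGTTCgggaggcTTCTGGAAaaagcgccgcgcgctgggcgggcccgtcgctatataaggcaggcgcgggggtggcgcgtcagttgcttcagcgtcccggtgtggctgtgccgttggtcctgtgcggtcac

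HSPA1A and HSPB1 each held 1 match of the 2-unit element and no 3-unit element. HSPA8 held 4 matches, which merge into 2 runs with 3 units each, and HSP90AA1 held 3 matches, of which 2 overlap in 1 3-unit run. The printed windows are ones with a match. Only 1 of the 2 windows of HSP90AA1 held one. The windows of HSPH1, lower in KO, and HSBP1, higher in KO, held none. At least 1 2-unit match was present in 18 of 50 windows (36.0%) of the chaperone list, against 13.5% of all 35116 windows and 10.3% of windows of the genes compared. A 3-unit match was present in 6 of 50 (12%), against 0.490% of all windows. By gene, 8 of 12 chaperones lower in KO with a window, 1 of 2 higher and 8 of 21 not called had a 2-unit match, and 1, 1 and 4 had a 3-unit match. The exact letters leave out degenerate elements, and a match is a description of the sequence, not evidence of a bound site.

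Mitochondrial chaperones were examined next. Of 12 measured mitochondrial chaperones and proteases, 3 (25.0%) were called lower and 0 higher in KO, against 9.69% lower and 11.1% higher of all genes tested, with a median of -0.26. HSPD1 forms the chaperonin ring and HSPE1 its lid, and the pair shares a promoter region. HSPE1 had 358 and 323 in KO, 699.6 and 930.2 in siJMJD6 and 1442 and 1095 in siNT libraries under MG132 (-1.24 ± 0.24 SE, adjusted p = 0.0037), and HSPD1 had 779 and 723, 1662 and 1472 and 2858 and 2352 (-1.06 ± 0.22 SE, adjusted p = 0.0053). Both were thus ordered KO, siJMJD6, siNT from low to high with no overlap. The HSPD1 call was lost without KO B (adjusted p = 0.0541), and that of GRPEL1, a nucleotide exchange factor (-1.04 ± 0.22 SE, adjusted p = 0.00651), without KO A (0.0849).

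TRiC and prefoldin, which fold actin and tubulin, gave both directions. Of 14 subunits of TRiC and prefoldin, 4 were called higher and 2 lower (42.9% called, against 20.8% of all genes tested). Their median was -0.32, on the side opposite to most calls. VBP1, a prefoldin subunit, had 118 and 89.7 in KO and 23.5 and 19.4 in siJMJD6 libraries (2.21 ± 0.31 SE, adjusted p = 0.000463), with siNT values of 73.1 and 89.0. PFDN2 (1.36) and PFDN4 (0.92) were also called higher and PFDN6 (-0.95) lower, but these 3 calls were lost without KO A, PFDN4 and PFDN6 also without KO B or siJMJD6 1 (adjusted p up to 0.195). The higher count was 1 without KO A and 2 without KO B or siJMJD6 1, and the lower count was 0 without any 1 of these 3. Of 19 measured folding genes of the endoplasmic reticulum, 1 (5.26%) was called higher and 0 lower, against 20.8% called of all genes tested. That gene was HERPUD1, which takes part in degradation at the reticulum, with 413 and 473 in KO and 86.2 and 159.8 in siJMJD6 libraries (1.90 ± 0.29 SE, adjusted p = 0.00091).

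Targets of ATF4 and CHOP were higher in KO than in siJMJD6 cells in nearly every case. Of 27 measured members, 23 were called higher in KO, 0 lower and 4 not called, against 11.1% and 9.69% of all genes tested. The list's median difference was 1.96. Against siNT under MG132 its median was 0.15 in KO and -1.70 in siJMJD6 cells, in contrasts that share the siNT libraries. The separation was therefore mostly a low level in siJMJD6 cells. The count of 23 was 17 without KO A and 17 without KO B.

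CHAC1 (chr15:40952962-40956519, plus strand), which degrades glutathione, had 17.1 and 16.6 counts in siJMJD6 and 746 and 960.0 in KO libraries, 50.6-fold apart in their means (5.57 ± 0.26 SE, adjusted p = 8.69e-08). The siNT values were 345 and 409 with MG132 and 205 and 159 with DMSO. The siJMJD6 libraries were therefore below even the unstressed controls, and both KO libraries were above every siNT library. DDIT4, an inhibitor of the growth kinase mTORC1, had 115 and 64.9 in siJMJD6, 2960.2 and 2000.0 in KO and 3085 and 3170.5 in stressed siNT libraries (4.80 ± 0.29 SE, adjusted p = 9.90e-07). TRIB3, a pseudokinase that feeds back on ATF4, had 30.9 and 35.2, 489 and 458 and 136 and 448 (3.80 ± 0.53 SE, adjusted p = 0.000467). Both were lowest in siJMJD6 cells, and the siNT libraries of TRIB3 differed widely from each other.

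The factors at the head of this group, chosen after their values were seen, were higher too. ATF4 had 346 and 269 in siJMJD6, 1376 and 1304 in KO and 1072 and 1771 in stressed siNT libraries (2.13 ± 0.27 SE, adjusted p = 0.000242), and DDIT3 had 95.8 and 129, 479.9 and 545 and 221 and 263 (2.19 ± 0.26 SE, adjusted p = 0.000156). PPP1R15A, the subunit that directs a phosphatase to eIF2α, had 71.3 and 92.9, 274 and 299 and 241 and 274 (1.8 ± 0.28 SE, adjusted p = 0.00105). The DMSO values of PPP1R15A were 51.5 and 35.7, so its siJMJD6 values lay above the unstressed and below the stressed controls.

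Other members of the list were higher in KO as well, amino acid genes among them. ASNS, which makes asparagine, had 136 and 143 in siJMJD6 and 1056 and 915 in KO libraries (2.81 ± 0.30 SE, adjusted p = 7.78e-05). NUPR1, a stress-responsive chromatin protein, had 194 and 129 and 1326 and 1554 (3.17 ± 0.30 SE, adjusted p = 4.19e-05). Chosen after their values were seen, the serine pathway genes PSAT1 (2.12) and PHGDH (1.49), the mitochondrial folate enzyme MTHFD2 (2.10) and the transporters SLC7A11 (2.57) and SLC7A5 (1.64) were also called higher in KO. For ASNS, PSAT1, PHGDH and MTHFD2 the difference from siNT under MG132 was between -0.089 and 0.19 in KO and between -2.90 and -1.38 in siJMJD6 cells. Calls for SLC3A2, SLC7A1, CEBPB, CEBPG, PCK2, STC2 and VEGFA were lost when 1 of the 4 libraries was left out.

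GDF15, a secreted stress cytokine, did not share this order. It had 21674 and 16227 counts in KO, 1158 and 991 in siJMJD6, 475 and 1772 in stressed siNT and 475 and 1483 in unstressed siNT libraries. The difference between KO and siJMJD6 was 4.13 ± 0.53 SE, adjusted p = 0.000272, and the siJMJD6 values fell within the range of the stressed siNT values. Its difference from siNT was 4.35 in KO and 0.22 in siJMJD6 cells, so this was a high level in KO and not a low level in siJMJD6. The members not called were ATF5 (-0.66), PSPH (-0.10), SHMT2 (0.56) and ATF3 (0.67).

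**Figure D3:**
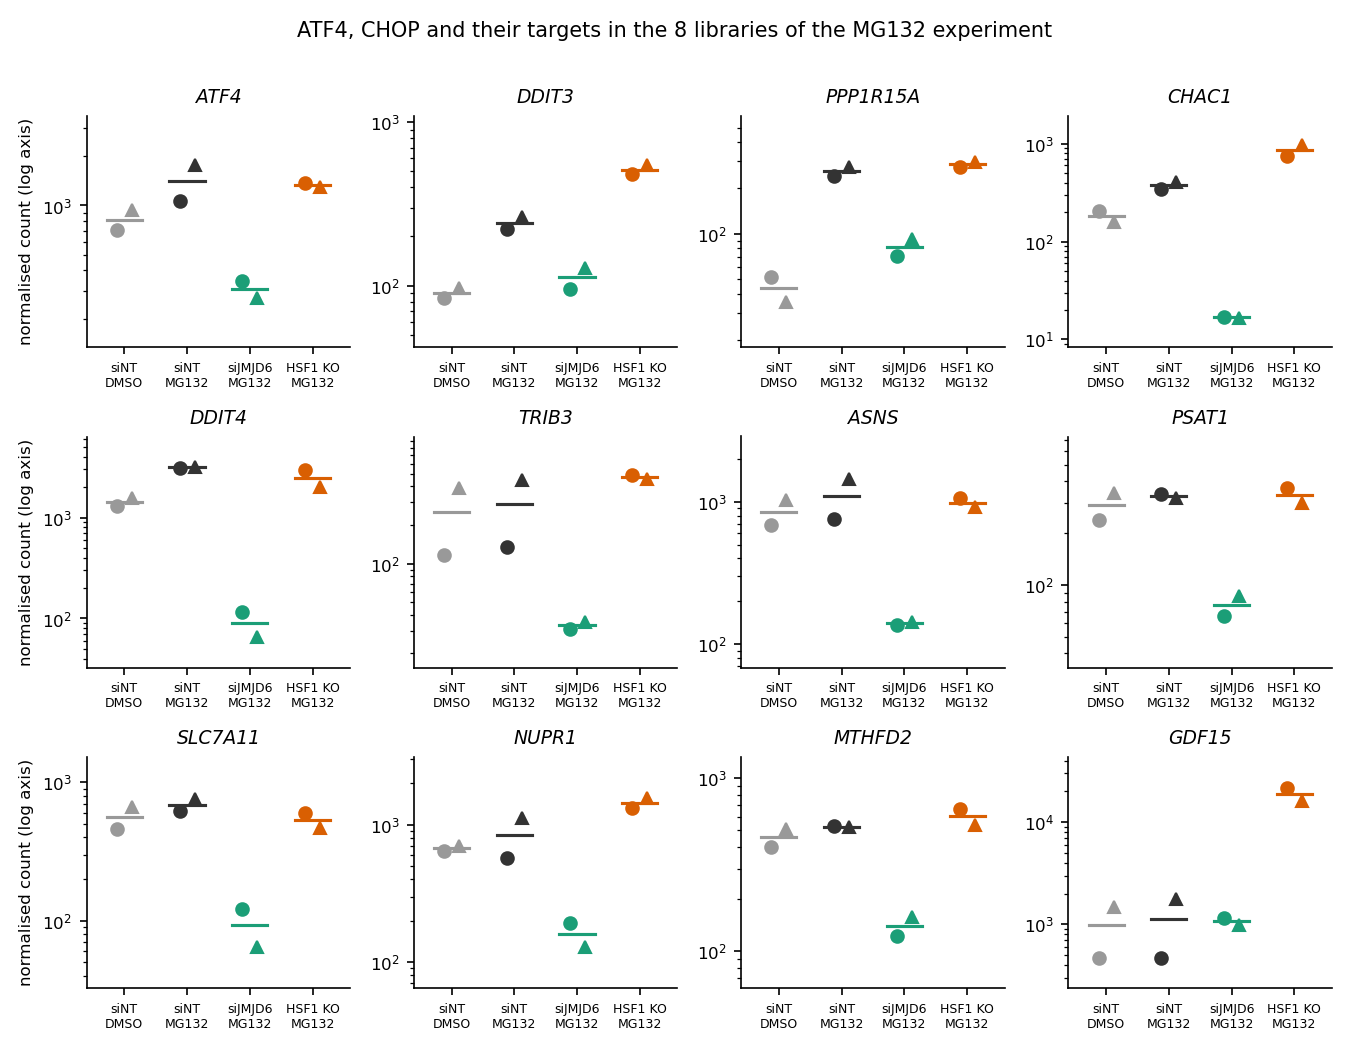
Normalised counts on log axes of ATF4, DDIT3 and 10 of their targets in each of the 8 libraries of the MG132 experiment, drawn as for the heat shock genes (circles 1 or A, triangles 2 or B, bars the means). Most are low in siJMJD6 libraries and near stressed siNT cells in HSF1 KO, whereas GDF15 is high only in HSF1 KO among these 4 groups.

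Some enzymes that charge tRNAs, a group that ATF4 drives in part, were higher in KO. Of 21 cytosolic or mitochondrial synthetases, 6 (28.6%) were called higher in KO, 0 lower and 15 not called, against 11.1% higher and 9.69% lower of all genes tested, with a median of 0.55. GARS, which charges glycine tRNA, had 268 and 257 in KO and 100.0 and 60.3 in siJMJD6 libraries (1.74 ± 0.27 SE, adjusted p = 0.00103), and 347 and 402 in stressed siNT libraries. CARS (1.28), MARS (1.27) and TARS (1.07) were the next by p. All 3 calls were lost without KO A, and those of MARS and TARS also without KO B or siJMJD6 1 (adjusted p up to 0.136). The difference of TARS was 0.66 without siJMJD6 1. The list's higher count was 1 without KO A and 2 without KO B. The second listed start of GARS (chr7:30594628-30594927, plus strand) is shown because it holds a match, in capitals, to the ATF4 element TGATGNAAT, here on the opposite strand.
GARS: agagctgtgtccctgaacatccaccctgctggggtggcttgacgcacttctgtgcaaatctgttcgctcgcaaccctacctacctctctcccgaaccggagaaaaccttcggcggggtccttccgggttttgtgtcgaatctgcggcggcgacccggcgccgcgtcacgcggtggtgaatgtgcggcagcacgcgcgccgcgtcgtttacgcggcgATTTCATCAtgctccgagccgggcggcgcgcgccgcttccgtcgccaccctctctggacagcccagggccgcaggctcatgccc

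The element was present in 0.991% of all windows and in 0 of 34 windows of the ATF4 and CHOP list, so these letters were not in those 300-base windows. Windows of genes called higher in KO held it in 10 of 1219 cases (0.820%) and those of genes called lower in 1 of 1041 (0.0961%). The share was 0.58% for windows of all genes compared and 0.604% for those of genes not called.

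Of 33 measured subunits of the proteasome, the target of MG132, 5 (15.2%) were called higher in KO and 0 lower, with a median of 0.48. The higher share was close to the 11.1% of all genes tested. The count was 1 without KO A and 1 without KO B. PSMA3, a subunit of the outer ring, had 351 and 362 in KO and 109 and 142 in siJMJD6 libraries (1.51 ± 0.27 SE, adjusted p = 0.00256). PSMB4 (1.26), PSMC2 (1.52) and PSMB5 (0.94) were called as well, and each of these 3 calls was lost without KO A or KO B and without 1 of the siJMJD6 libraries (adjusted p up to 0.112), with PSMB5 at 0.59 without siJMJD6 2. Of 20 ubiquitin and autophagy genes, 3 were higher and 2 lower (25.0% called, against 20.8% of all genes tested). UBB, a stress-inducible polyubiquitin gene, had 719 and 674 in KO, 3420.3 and 2145 in siJMJD6 and 1668 and 2044 in stressed siNT libraries (-1.96 ± 0.25 SE, adjusted p = 0.000272), so KO libraries were below all others. Its sequence is made of near-identical repeats, which makes the assignment of reads uncertain. GABARAPL1, an autophagosome protein, was lower too (-1.44), a call lost without KO A. The ubiquitin ligases UBE3A (1.51 ± 0.26 SE, adjusted p = 0.00176) and HUWE1 (1.37 ± 0.24 SE, adjusted p = 0.00222) were higher in KO, and without siJMJD6 1 the list's higher count was 8.

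Oxidative stress genes were split. Of 19 NRF2 targets, 4 were called higher and 4 lower (42.1% called, against 20.8% of all genes tested), with a median of 0.40. Fewer were called in either direction without KO A. The thioredoxin reductase TXNRD1 had 236 and 293 in KO and 39.4 and 75.2 in siJMJD6 libraries (2.25 ± 0.35 SE, adjusted p = 0.00103), and the quinone reductase NQO1 had 281 and 327 and 102 and 134 (1.37 ± 0.26 SE, adjusted p = 0.0033). SRXN1, which repairs peroxiredoxins, was at 1.20 and lost its call without KO A (adjusted p = 0.0651). Both measured metallothioneins were lower in KO, MT2A at 466 and 412 against 1234 and 1243 (-1.50 ± 0.24 SE, adjusted p = 0.00121) and MT1X at -1.40, the latter lost without any 1 of the 4 libraries (adjusted p up to 0.153). Genes of hypoxia and glycolysis were split too, with 3 higher and 4 lower of 17 (41.2% called, against 20.8% of all genes tested). Fewer were called higher without KO B and fewer lower without KO A. ANKRD37, a target of the hypoxia factor HIF, had 14.3 and 9.33 in KO and 119 and 131 in siJMJD6 libraries (-3.32 ± 0.37 SE, adjusted p = 0.000103), whereas BNIP3, a mitophagy receptor, had 126 and 196 and 51.1 and 35.2 (1.86 ± 0.32 SE, adjusted p = 0.00166). EGLN3, an oxygen sensor, was lower (-2.39, lost without KO A), and VEGFA, a vascular growth factor, higher (2.14, lost without KO B and 1.32 without siJMJD6 1).

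Most cell cycle genes on the lists were higher in KO. Of 22 mitotic genes, 18 (81.8%) were called higher, 0 lower and 4 not called, and of 22 S phase genes, 13 (59.1%) were higher, 0 lower and 9 not called, against 11.1% higher and 9.69% lower of all genes tested. The medians were 1.47 and 1.38. Against siNT under MG132 the median of mitotic genes was 0.25 in KO and -1.30 in siJMJD6 cells, and that of S phase genes was 0.47 and -1.05. PRC1, which bundles spindle microtubules, had 20.3 and 17.6 in siJMJD6, 102 and 138 in KO and 91.6 and 114 in stressed siNT libraries (2.59 ± 0.30 SE, adjusted p = 0.000136). The kinase AURKA had 60.7 and 77.0, 332 and 315 and 219 and 279 (2.22 ± 0.26 SE, adjusted p = 0.000142). In PRC1 and AURKA the siJMJD6 libraries were below all others.

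Among S phase genes, RFC4, a clamp loader subunit, had 157 and 167 in siJMJD6 and 536 and 660.0 in KO libraries (1.87 ± 0.24 SE, adjusted p = 0.000243), and the helicase subunit MCM7 had 107 and 113 and 454 and 302 (1.74 ± 0.27 SE, adjusted p = 0.00101). TYMS (1.82) and CDC45 (2.86) of the S phase list and CDC20 (2.00) and PLK1 (2.19) of the mitotic list were called higher as well. The mitotic count was 7 without KO A, 8 without KO B and 9 without siJMJD6 1, and the S phase count 4 without KO A and 8 without KO B. The growth arrest gene CDKN1A (p21) had 115 and 105 in siJMJD6 and 26.1 and 45.4 in KO libraries (-1.64 ± 0.39 SE, adjusted p = 0.0103), a call lost without KO A (adjusted p = 0.118). TXNIP, which inhibits thioredoxin and glucose uptake, had 353 and 500.1 in KO, 38.4 and 46.4 in siJMJD6, 45.4 and 31.1 in stressed and 297 and 239.6 in unstressed siNT libraries (3.29 ± 0.30 SE, adjusted p = 2.89e-05). BTG1, an antiproliferative gene, was also higher in KO (1.48 ± 0.24 SE, adjusted p = 0.00118), so growth arrest genes were called in both directions, 2 each of 13 (30.8% called, against 20.8% of all genes tested). The other lower call, the cell cycle inhibitor CDKN2B (-1.25), was lost without KO A or KO B (adjusted p up to 0.0805).

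Most measured histone transcripts went against the cell cycle genes. Of 6 measured, 5 were called lower in KO and 1 higher, against 9.69% lower and 11.1% higher of all genes tested. Fewer were called lower without KO B, and HIST1H2BD and HIST1H2AE passed the minimum only through siJMJD6. HIST1H2BK had 118 and 77.4 in KO, 1189.5 and 677 in siJMJD6 and 243 and 168 in stressed siNT libraries (-3.22 ± 0.32 SE, adjusted p = 5.39e-05), and HIST1H2BD, below 10 counts in both KO libraries, had 7.08 and 5.20, 135 and 112 and 11.4 and 8.43 (-4.13 ± 0.60 SE, adjusted p = 0.000688). H1F0, a linker histone made outside S phase, had 71.2 and 112, 486 and 575 and 50.5 and 76.5 (-2.55 ± 0.30 SE, adjusted p = 0.000162). These 3 were high in siJMJD6 cells, while HIST1H4C was low there, with 608 and 303, 74.5 and 107 and 607 and 516 (2.25 ± 0.36 SE, adjusted p = 0.00118). Oligo-dT priming catches histone messages only where they carry a poly(A) tail, and near-identical histone copies can share reads, so single members are uncertain.

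Splicing regulators, a class that includes proteins JMJD6 is known to modify, gave 4 higher and 1 lower of 23 in KO, with a median of 0.31. The called share of 21.7% was close to the 20.8% of all genes tested. Fewer were called higher without KO A or without siJMJD6 1. TRA2B had 344 and 426 in KO, 45.8 and 73.3 in siJMJD6 and 213 and 183 in stressed siNT libraries (2.70 ± 0.28 SE, adjusted p = 7.34e-05). HNRNPA1 had 611 and 591, 172 and 187 and 696 and 544 (1.74 ± 0.23 SE, adjusted p = 0.00031), and SRSF5 393 and 394, 1043 and 1045 and 675 and 923 (-1.41 ± 0.23 SE, adjusted p = 0.00118). TRA2B and HNRNPA1 were thus lowest in siJMJD6 and SRSF5 lowest in KO cells. SRSF3 was called higher in KO (1.16), a call lost without KO A or siJMJD6 1 (adjusted p up to 0.103). A 3' tag counts transcripts of a gene and cannot show how they were spliced. Of 21 measured JmjC oxygenases, 3 were higher in KO, JMJD6 itself among them, and 3 lower (28.6% called, against 20.8% of all genes tested). Without KO A, and likewise without KO B, the limma fit called 1 higher and 0 lower, and without siJMJD6 1, as without siJMJD6 2, it called 3 higher and 1 lower. PHF2 (1.64), JMJD8 (-1.29) and KDM5A (-0.89) each lost their call without KO A or KO B and without 1 siJMJD6 library (adjusted p up to 0.153).

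The largest differences named by rule lay mostly outside these groups. Higher in KO were RBM3, a cold-inducible RNA-binding protein (895 and 662 in KO, 57.5 and 76.1 in siJMJD6 and 304 and 475 in stressed siNT libraries, 3.52 ± 0.30 SE, adjusted p = 2.29e-05), and PRR11, a cell cycle gene (541 and 437, 43.7 and 56.6 and 549 and 481, 3.26 ± 0.26 SE, adjusted p = 1.09e-05). ITPK1, an inositol phosphate kinase (3.46), DIAPH2, a formin (3.46), and the U5 snRNA copy RNU5F-1 (3.47) were also lower in siJMJD6 than in stressed siNT cells. KRT75, a keratin (3.54), lost its call without KO A (adjusted p = 0.169). Lower in KO were CCDC80, a matrix protein (53.1 and 67.1 in KO, 975 and 862 in siJMJD6 and 119.5 and 139.9 in stressed siNT libraries, -3.92 ± 0.29 SE, adjusted p = 8.86e-06), and CLDN14, a tight junction claudin (0 and 1.07, 108 and 141 and 8.28 and 5.60, -6.43 ± 0.58 SE, adjusted p = 2.75e-05). CCDC80 and CLDN14 were higher in siJMJD6 than in any other library, and CLDN14 passed the minimum only through siJMJD6. With a pseudocount of 10 the difference of CLDN14, which is near 0 in KO, was -3.67, and those of the low genes DIO3, FOSB, CDC45, SPARC and OAS1 were -3.41, -1.92, 1.72, 1.89 and -1.23.

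CLU, the secreted chaperone clusterin, had 4.38 and 4.17 in KO, 173 and 186 in siJMJD6, 41.2 and 103 in stressed and 37.5 and 63.4 in unstressed siNT libraries (-5.10 ± 0.43 SE, adjusted p = 2.29e-05). RAB31, a vesicle GTPase, had 7.08 and 6.23, 149 and 81.8, 290.3 and 169 and 301 and 149.8 (-3.86 ± 0.40 SE, adjusted p = 7.34e-05). In both genes KO libraries were below every other library, with or without stress. SNAR-F (-6.85) and SNAR-G1 (-4.96) belong to a family of near-identical small RNAs, so reads may be split among copies. The limit of oligo-dT priming given for histones holds for these small RNAs, RNU5F-1 and SNORA12 too, so their levels are uncertain. DIO3, a thyroid hormone deiodinase, was at 0.782 and 0.0342 in KO and 45.6 and 209 in siJMJD6 libraries (-6.19 ± 1.13 SE, adjusted p = 0.00264), so KO values were at or near 0 and the siJMJD6 libraries differed widely. SNORA12 (-3.84) and HIST1H2AE (-3.81) completed the list, the latter lost without KO A or KO B (adjusted p up to 0.0733).

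Some of the largest differences were unlike in the 2 KO libraries. Of 4564 genes with a mean of at least 50, 6 differed at least 4-fold between KO A and KO B, against 24 between the siJMJD6 and 26 between the stressed siNT libraries. CTAG2, a cancer-testis antigen, had 79.3 in A and 1003 in B, against 9.66 and 5.48 in siJMJD6 libraries, a difference of 5.10 that became 3.27 without B and 6.92 without A. VCAN, a matrix proteoglycan, had 0.776 in A and 50.6 in B, against 158 and 309.8, a difference of -4.54 that became -2.11 without A and -6.97 without B. ADIRF had 2.58 and 51.6, against 372 and 196, a difference of -4.31 that became -2.37 without A and -6.24 without B. PLAT, DNAH5 and PTPRU, chosen after their values were seen, were the other 3. CTAG2 was above both siJMJD6 libraries in each KO library, and VCAN and ADIRF were below both, but the sizes of these differences depend on 1 library.

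Of 19 genes of cholesterol synthesis and uptake, 6 were higher and 2 lower (42.1% called), against 11.1% higher and 9.69% lower of all genes tested. INSIG1, which holds back the sterol sensor, had 207 and 262 in KO and 26.7 and 42.7 in siJMJD6 libraries (2.75 ± 0.39 SE, adjusted p = 0.000515), and HMGCS1 1446 and 1629.5 and 413 and 664 (1.55 ± 0.27 SE, adjusted p = 0.002). The sterol desaturase SC5D had 18.8 and 30.0 and 131 and 157 (-2.54 ± 0.32 SE, adjusted p = 0.000254). MVD, of the same pathway, was at 1.32 and lost its call without KO A, and the higher count was 3 without KO A, 3 without KO B and 10 without siJMJD6 2. Of 40 ribosomal protein genes, 3 were higher and 1 lower, and of 20 genes of oxidative phosphorylation, 2 higher and 0 lower. All of these calls (RPL6, RPS6, RPS12, RPL32, NDUFB2 and COX5A) were lost without KO A, and RPS6 and RPS12 were at 0.53 and 0.54 without siJMJD6 2. Of 16 immediate-early genes, 5 were higher and 2 lower (43.8% called, against 20.8% of all genes tested), although the median was -0.077. FOSB, an AP-1 subunit, had 5.30 and 2.10 in KO, 55.0 and 30.8 in siJMJD6 and 2.10 and 4.66 in stressed siNT libraries (-3.25 ± 0.64 SE, adjusted p = 0.00443). KLF6 (1.96) and MCL1 (1.13) were higher in KO, both lost without KO B (adjusted p up to 0.0796), where 0 of the list were higher.

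Of 9 interferon-response genes, 3 (33.3%) were lower and 0 higher in KO, against 9.69% and 11.1% of all genes tested. IFI6 had 35.1 and 15.5 in KO, 143 and 75.3 in siJMJD6 and 21.7 and 15.1 in stressed siNT libraries (-2.10 ± 0.47 SE, adjusted p = 0.00801), and ISG15 had 302 and 282, 691 and 428 and 180.3 and 226 (-0.90 ± 0.27 SE, adjusted p = 0.0302). In both genes siJMJD6 values were the highest and KO values exceeded or overlapped the siNT values. The calls for IFI6, ISG15 and OAS1 (-1.97) were each lost without KO B and without siJMJD6 1 (adjusted p up to 0.276), with ISG15 at -0.55 without siJMJD6 1 and OAS1 at -1.22 without KO B. Of 5 NF-κB genes 0 were called, with TNFAIP2 at 2.66 (adjusted p = 0.0719) and NFKB1 at 1.17 (0.107). TNFAIP2 passed with a pseudocount of 10 (1.07, adjusted p = 0.0329) and without siJMJD6 2 (4.07, 0.0291), and NFKB1 passed with no variance trend (1.17, 0.0422). Of 12 genes of the TGF-β and BMP response, 25.0% were called, against 20.8% of all genes tested. SKIL (1.46) was higher and ID1 (-1.71) and ID2 (-1.60) were lower, and each of these calls was lost without KO A, KO B or siJMJD6 2. ID1 was at -1.03 without KO A.

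Lists of cell identity markers held few measured genes. Of 10 epithelial markers, 8 were measured and 0 called, with summed counts of 2270 and 2350 in KO and 2950 and 2540 in siJMJD6 libraries. CLDN4 was at -1.03 (adjusted p = 0.113) and ESRP1 at 1.74 (0.0974). CLDN4 passed in the fit of only the 4 libraries compared (-1.03, adjusted p = 0.0277) and ESRP1 without siJMJD6 2 (2.55, 0.0377). Of 14 mesenchymal markers, 8 were measured and COL1A2 (2.05) and SPARC (3.85) were higher in KO, both lost without KO A, with SPARC at 2.51 without siJMJD6 2. HOXB13, a prostate homeobox gene, was lower in KO (128 and 164 against 308 and 279.7, -1.01 ± 0.33 SE, adjusted p = 0.0434), lost without any 1 of the 4 libraries. The neuroendocrine genes ENO2 (2.27) and SYT1 (1.07) were higher, also lost without KO A or KO B, with ENO2 at 1.12 without siJMJD6 2 and 3.42 without siJMJD6 1. Of 11 blood and immune markers only CD68 was measured (-0.25, adjusted p = 0.717). That value changed sign to 0.42 without KO A and was not called in any fit. The part of these markers in the other results was not tested.

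**Figure D4:**
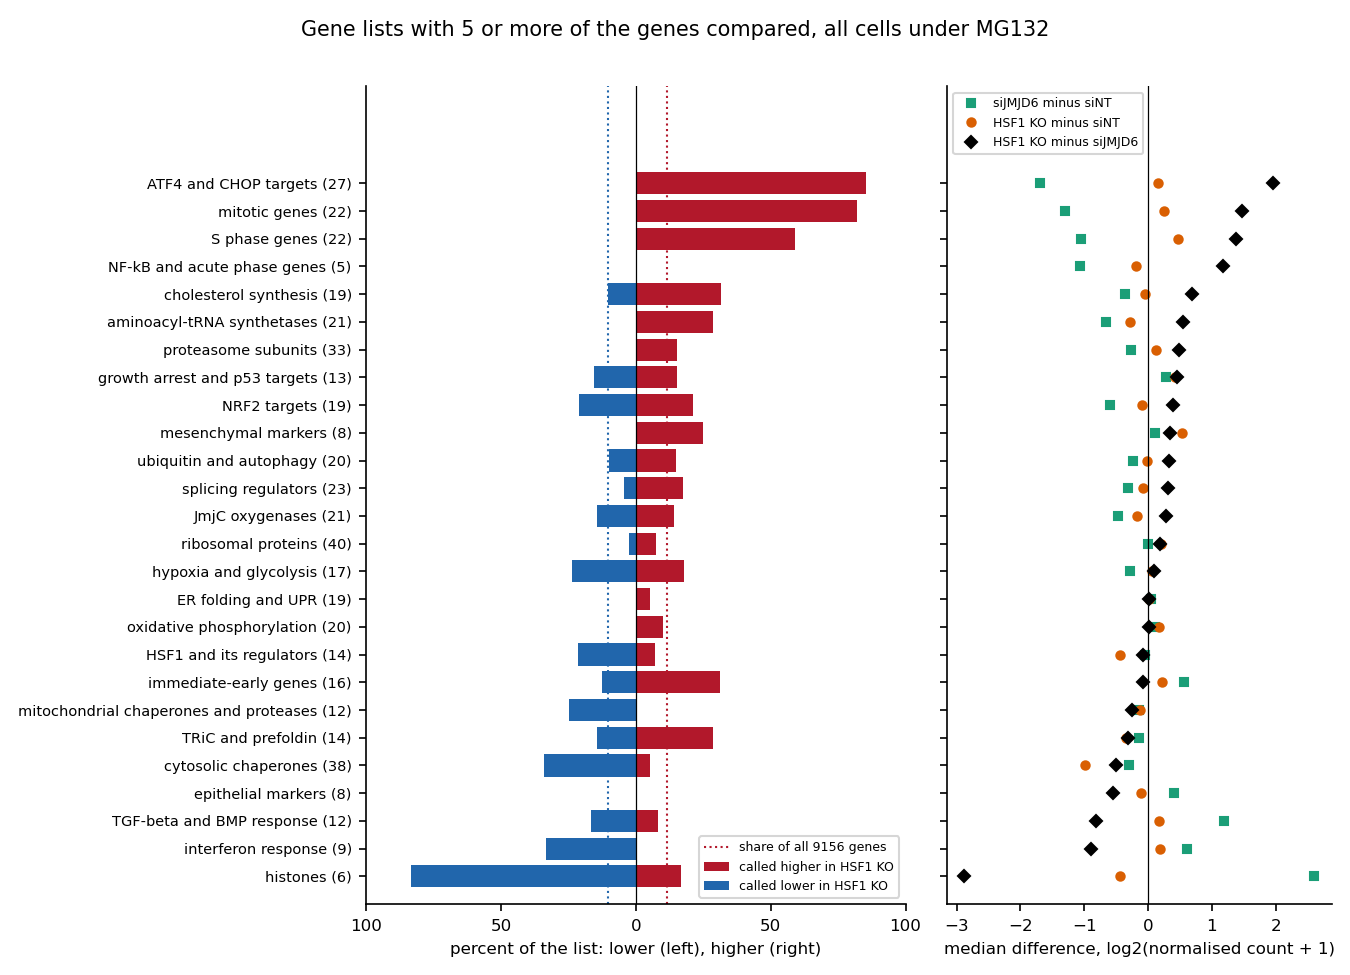
Left, the percent of each gene list called lower (blue, drawn to the left) and higher (red, to the right) in HSF1 KO than in siJMJD6 cells, with dotted lines at the shares of all 9156 genes and the number of measured members in parentheses. Right, each list's median difference on the log2(normalised count + 1) scale; the ATF4 and CHOP list (23 of 27 higher) and mitotic genes (18 of 22) have the highest medians, with siJMJD6 minus siNT at -1.70 and -1.30 and KO minus siNT at 0.15 and 0.25. Only lists with at least 5 measured members are drawn.

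The heat shock experiment of the same study gave a separate reading of the JMJD6 knockdown, in 3 siJMJD6 and 3 siNT libraries that the MG132 contrast did not use. JMJD6 itself differed by -4.31 between them (adjusted p = 1.16e-19). These cells were heated for 1 h at 42 °C and left for 2 h. There, 24.9% of tested genes were called lower and 21.4% higher in siJMJD6 cells. Of the 1071 genes higher in KO than in siJMJD6 cells under MG132, 1052 were tested there, and 723 (68.7%) were called lower and 16 (1.52%) higher in siJMJD6 than in siNT cells after heat shock. Of the 934 genes lower in KO, 889 were tested, and 595 (66.9%) were called higher and 43 (4.84%) lower. Among 6992 genes not called under MG132, 22.0% were called lower and 19.4% higher. Median knockdown differences after heat shock were -0.73, 0.63 and -0.015 for the 3 sets.

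The ATF4 and CHOP list, mostly low in siJMJD6 cells under MG132, was also lower after heat shock in 18 of 27 members and higher in 3. CHAC1 differed by -2.54 (adjusted p = 2.03e-12) and DDIT4 by -1.97 (1.07e-16) between siJMJD6 and siNT cells after heat shock, and PRC1 by -2.79 (4.58e-12). HIST1H2BD, high in siJMJD6 cells under MG132, differed by 2.97 (1.33e-12) after heat shock, and ANKRD37 by 1.20 (6.13e-06). These genes had the same direction in siJMJD6 cells under both stresses, but not every list did. For metallothioneins the median of siJMJD6 minus siNT was 0.683 under MG132 and -1.12 after heat shock, with both members called lower there. For immediate-early genes the medians were 0.563 and -0.175.

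Of 37 cytosolic chaperones tested after heat shock, 18 were called lower and 3 higher in siJMJD6 than in siNT cells, against 24.9% and 21.4% of all genes tested there, with a median of -0.24. HSPA1A differed by 0.21 (0.0419), HSPH1 by -0.38 (9.50e-05) and HSPB1 by -0.24 (0.00993) between siJMJD6 and siNT cells, and HSF1 itself by 0.25 (0.00573). The first and last were higher and the others lower with the knockdown. Under MG132 the differences between siJMJD6 and siNT cells were -2.47, -0.92, 0.23 and 0.52 in the same order, of which that of HSPA1A passed the threshold and the others did not. HSP90AA1, not called between KO and siJMJD6, differed by -2.41 (6.72e-25) after heat shock. The difference between the stresses was not tested, because the tables were normalised separately.

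**Figure D5:**
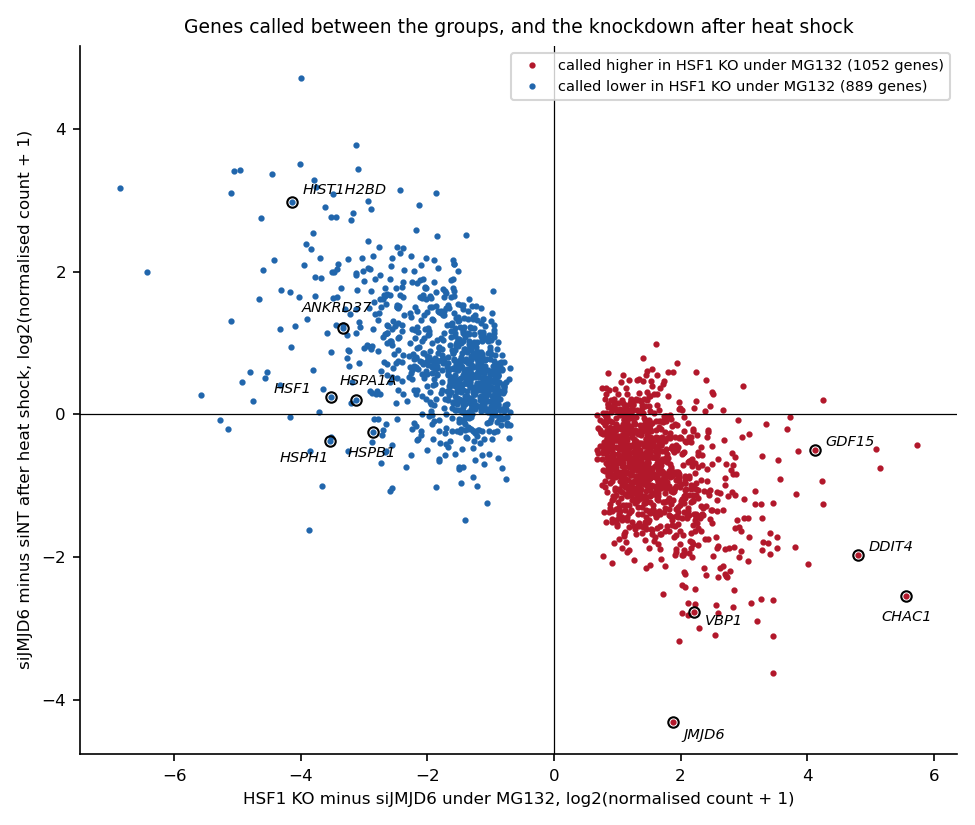
Genes called under MG132 and tested after heat shock, with HSF1 KO minus siJMJD6 under MG132 on the x axis and siJMJD6 minus siNT after heat shock on the y axis, both on the log2(normalised count + 1) scale. Most of the 1052 red points (higher in KO) lie below 0 and most of the 889 blue points (lower in KO) above it, while HSF1, HSPA1A, HSPH1 and HSPB1 lie near 0 on the y axis.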

How the data were processed

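RNA of PC3M cells was read with QuantSeq FWD, per the labels' protocols. Per the submitters' processing notes, FastQC 0.11.2, STAR 2.6.0 and HTSeq were used with hg38; annotation, strand setting and scaling were not given in the sources used here. Deposited signal values are the authors' normalised counts per gene, in 2 separately normalised tables. Low values were near whole reads (within 0.15) in only 47.1 to 100% of cases per library, so no count model was used.

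Log2(value + 1) of the 8 libraries was fitted with limma 3.58.1 (variance trend, R 4.3.3) over 9778 genes with at least 10 in at least 2 libraries, with Benjamini-Hochberg adjustment; the heat shock table, with a minimum of 3 libraries, gave 9831. The script was tested on simulated data. Alternatives covered pseudocounts, filters, scaling (TMM, quantiles), fits of fewer libraries and leaving out each library.

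Members and the 30 gene lists, of which 557 of 611 genes were in the table, were chosen with earlier results of these data known. Genes named are HSF1, JMJD6, HSPB1 and CHAC1, with HSPH1, HSPA8, HSPA1B, HSPA1A, BAG3, DNAJB1 and HSP90AA1; the 12 largest called differences each way (groups not overlapping, mean 50 or more); and per list up to 4 called members by adjusted p, or 2 where none was called. RefSeq promoters matched 7309 members. Positions are of hg38.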

Additional observations from a re-analysis of the deposited data

Results flagged for a closer look

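HSPB1, which encodes HSP27, had values on opposite sides of siNT with the JMJD6 knockdown in the 2 experiments, of which only the heat shock side passed its test. Under MG132 both siJMJD6 libraries (2136 and 1977 normalised counts) were above both siNT libraries (1746 and 1757), a difference of 0.23 on the log2(normalised count + 1) scale that did not pass (adjusted p = 0.589). After heat shock all 3 siJMJD6 libraries were below all 3 siNT libraries, a difference of -0.24 (adjusted p = 0.00993 with limma and Benjamini-Hochberg). The difference between these effects was not tested. Genes were flagged only from the markers, the named chaperones and the largest differences, and only where groups did not overlap in either experiment. Other genes can therefore have opposite signs without a flag. HSPA1A, given above, was called lower than siNT with the knockdown under MG132 and called higher after heat shock. That difference was not tested either.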

How the results depend on the processing

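Of 119 named genes 111 were called, 63 of them in all 17 alternatives and 65 in every fit that left out 1 library. Of the 8 not called, HSP90AA1, DNAJB1, BAG3, TNFAIP2, NFKB1, ESRP1 and CLDN4 passed in at least 1 alternative. No called gene changed direction in any alternative; CD68, not called, turned from -0.25 to 0.42 without KO A and was at -0.92 without KO B. The number of genes called, 2033, ranged from 653 to 2017 when 1 library was left out, being lowest without KO A (653) and KO B (741). Higher calls (1086) ranged from 289 to 1107 and were 700 with no filter on low values, and lower calls (947) ranged from 364 to 954. Members called (2005) ranged from 648 to 1993 and were 1246 with no filter. TMM scaling moved the median difference from 0.0514 to 0.138 and the share of higher among called genes from 53.4 to 60.5%; called differences kept their direction.

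Of chaperones, 2 were higher in the main fit and 1 with a pseudocount of 0.5, no filter, the 4-library fit, the 6-library fit or no variance trend, and 1 to 2 with a library left out. Lower chaperones (13) ranged from 7 to 13, ATF4 and CHOP targets (23) from 17 to 23, S phase genes (13) from 4 to 14 and mitotic genes (18) from 7 to 18. Mitotic genes numbered 12 with no filter and 11 without a variance trend. The cause of these shifts was not tested. With 1 library left in a group, its spread is assumed to equal that of the other groups.

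KO and siJMJD6 libraries share no replicate number, so no paired analysis was possible for their comparison. Same-numbered deviations correlated at 0.0447 between siNT and siJMJD6 under MG132, at 0.368 and 0.318 between siNT with DMSO and these groups, and at -0.0348 to 0.0943 in the heat shock table; not every pair was above 0.1, so the numbers were not used as pairs. A replicate block moved the genes called for siJMJD6 against siNT from 1327 to 1811 under MG132 and from 4557 to 4589 after heat shock. Depth of 1.54 to 1.96 M estimated reads limits differences of genes with few counts.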

Other observations

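Genes annotated as antisense differed from protein-coding genes in how often they were called. Of 56 antisense genes among those compared, 20 (35.7%) were called lower and 5 (8.93%) higher in KO, against 9.85% lower and 11.9% higher of 8585 protein-coding genes. Their median difference was -1.04. Against siNT under MG132 it was -0.155 in KO and 0.91 in siJMJD6 cells, and after heat shock it was 0.598 in siJMJD6 cells. The strand setting of the counting is not given, so reads of an antisense gene and of its partner may not be told apart.

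Over all genes compared, 11.7% were called higher and 10.2% lower in KO, and single chromosomes varied around these shares. On chromosome 12, 19.4% of 468 genes were higher and 10.3% lower in KO, with a median of 0.298, and on chromosome X 17.7% of 288 were higher and 9.38% lower, with a median of 0.236. On chromosome 21, 6.17% of 81 genes were higher and 17.3% lower, with a median of -0.174. On chromosome 12 the median against siNT under MG132 was 0.189 in KO and -0.133 in siJMJD6 cells. Chromosome 1 had 15.2% of 893 genes higher and 7.28% lower, with a median of 0.245. Chromosome 8, which carries HSF1, had 9.03% of 310 genes higher and 14.5% lower, with a median of -0.0691. The chromosomes were chosen after their values were seen, and these values are descriptions with no test.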
